A study of Mus musculus with 5 samples.

Results

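S100 calcium-binding proteins were examined as transcripts in mouse tumor macrophages. The family was taken as 8 genes, S100a1, S100a4, S100a6, S100a8, S100a9, S100a10, S100a11 and S100a13, matched by symbol in the authors' deposited Cuffdiff table. All 8 were found, each as a row of its own, among 24982 rows, and all 8 were among the 12311 rows that Cuffdiff tested. RNA was sequenced from macrophages taken from tumors of the mouse fibrosarcoma line 9609 (an MCA, that is methylcholanthrene, tumor). The MEK1-hi group held 3 libraries, from the MEK1-hi form of the line with MEK1-hi exosomes as the labelled treatment. The MEK1-low group held 2 libraries, from the MEK1-low form with exosomes noted as GFP. Exosomes are small vesicles that cells release, and MEK1 is the kinase that activates ERK. Both groups thus rest on forms of 1 tumor line. How the macrophages were isolated, and whether libraries came from separate or pooled mice, is not given in the sources used here.

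S100 proteins are small proteins that carry a pair of EF-hand calcium-binding loops and usually work as dimers. Inside cells, calcium exposes a surface through which they bind annexins, myosins and other partners. Some leave the cell without a signal peptide and act on receptors such as TLR4 and RAGE. In myeloid cells the best-known members are S100a8 and S100a9, the subunits of calprotectin, which neutrophils and inflammatory monocytes store in large amounts. S100a4, S100a6, S100a10 and S100a11 are made by macrophages and by many mesenchymal and tumor cells.

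The table gives 1 pooled FPKM per group (a fragment level corrected for transcript length and library size), so no value per library and no SD can be printed. The measure of error is the authors' Cuffdiff p value with its q, the p adjusted over all tested rows, and genes were called at a q of 0.05. Those p values reflect the spread between these libraries, which may be technical. Depth cannot be read from the table, and the labels state a plan of about 25000000 reads per library. Every log2 fold change is MEK1-hi over MEK1-low.

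S100 transcripts in these macrophages were abundant, and none of the 8 passed the test between the groups. S100a6 alone was listed at 1026 FPKM in MEK1-hi and 1093 FPKM in MEK1-low, and the 8 genes together summed to 2143 FPKM in MEK1-hi and 2274 FPKM in MEK1-low. In the authors' deposited table, 0 of 8 were called by Cuffdiff at a q of 0.05, beside 163 of all 12311 tested rows (1.32%, of which 0.999% of tested rows higher and 0.325% lower). At a q of 0.1 it was again 0 of 8, beside 1.61% of tested rows. Before adjustment, 0 of 8 reached a p under 0.05 in the authors' deposited table, beside 6.08% of tested rows. Against backgrounds this low, a count of 0 in 8 genes is no result about the family. Between the groups, 4 members lay above 0 on the log2 scale and 4 below, with a median of -0.02, the same as the median of -0.02 over the 12306 tested rows above 0 FPKM in both groups. The median absolute log2 fold change was 0.10 among the members and 0.17 over those rows.

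The members lie in a cluster on chromosome 3, and the sequences before 4 of their starts are shown because they hold the TATA box cores before S100a8 and S100a4, the AP-1 motifs of S100a11 and the divergent start of S100a1 and S100a13. The windows are the 250 bases before the RefSeq start on GRCm38.p6 (the mm10 assembly), read 5′ to 3′ on the strand of the gene. RefSeq promoter windows were matched for 7 of the 8 members. In S100a8 and S100a4 the capitals mark the TATA box core TATAAA, in S100a11 the AP-1 motif TGANTCA, and in S100a13 the stretch that separates its start from that of S100a1 on the opposite strand.
S100a8, plus strand, chr3:90668821-90669070: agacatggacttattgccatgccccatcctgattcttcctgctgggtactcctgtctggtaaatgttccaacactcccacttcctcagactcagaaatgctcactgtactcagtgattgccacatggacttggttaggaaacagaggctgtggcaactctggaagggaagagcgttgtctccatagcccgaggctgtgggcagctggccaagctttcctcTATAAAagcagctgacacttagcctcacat
S100a4, plus strand, chr3:90603520-90603769: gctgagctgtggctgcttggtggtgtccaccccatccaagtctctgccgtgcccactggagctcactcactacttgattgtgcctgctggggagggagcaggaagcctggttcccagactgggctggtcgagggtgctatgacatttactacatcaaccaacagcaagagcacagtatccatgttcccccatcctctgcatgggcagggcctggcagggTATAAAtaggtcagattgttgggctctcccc
S100a11, plus strand, chr3:93520246-93520495: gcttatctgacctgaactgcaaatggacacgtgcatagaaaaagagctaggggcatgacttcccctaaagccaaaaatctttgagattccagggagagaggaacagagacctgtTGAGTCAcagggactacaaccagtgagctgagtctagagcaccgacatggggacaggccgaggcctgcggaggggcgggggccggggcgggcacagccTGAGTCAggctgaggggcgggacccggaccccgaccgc
S100a13, plus strand, chr3:90514185-90514434: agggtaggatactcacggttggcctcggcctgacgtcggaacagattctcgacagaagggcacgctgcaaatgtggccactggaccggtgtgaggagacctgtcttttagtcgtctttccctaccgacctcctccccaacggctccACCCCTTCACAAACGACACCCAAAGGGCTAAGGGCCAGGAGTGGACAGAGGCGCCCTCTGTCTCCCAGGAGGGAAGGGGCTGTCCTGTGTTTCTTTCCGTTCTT

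Motifs were searched on both strands over RefSeq windows of 300 bases, 250 before the start and 50 from it on. TATAAA was found in S100a4, S100a8 and S100a9, 3 of 7 members, and in 13.6% of all 32851 windows. On the sense strand within bases -40 to -20 it was found in S100a4 (bases -31 to -26) and S100a8 (bases -30 to -25), and in 1.91% of all windows. In S100a9 the match began at the annotated start itself. The AP-1 motif TGANTCA, bound by Fos and Jun proteins, was found in S100a11 (1 of 7 members), at bases -136 to -130 and -38 to -32, and in 7.81% of all windows. The CCAAT box CCAAT was found in S100a6 (1 of 7 members), on the antisense strand at bases -228 to -224, and in 37.4% of all windows. The gamma-activated site motif TTCNNNGAA was found in 0 of 7 members and in 8.3% of all windows. S100a1 and S100a13 start on opposite strands with 104 bases between their RefSeq starts. In the annotation of GENCODE release M21, S100a1 reaches base 90514392, which lies within that stretch. These matches describe the letters of the windows, and binding was not measured.

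The largest levels belonged to the widely expressed members. S100a6, also called calcyclin, which binds annexins and the ubiquitin-pathway protein CacyBP, was first in the order in both groups. S100a6 (mm10 chromosome 3, 90612894 to 90614414) had 1026 FPKM in MEK1-hi and 1093 FPKM in MEK1-low in the authors' deposited table (log2 fold change -0.09, p = 0.749, q = 0.9998). It lay at percentile 99.7 of tested rows in both groups. S100a4, known as metastasin or fibroblast-specific protein, binds the non-muscle myosin heavy chain Myh9 and promotes cell movement. S100a4 (90603770 to 90606045) had 445 FPKM in MEK1-hi and 474 FPKM in MEK1-low in the authors' deposited table (log2 fold change -0.09, p = 0.703, q = 0.9998). The ratio of S100a6 to S100a4 was 2.30 in MEK1-hi and 2.30 in MEK1-low. Both genes were thus slightly lower in MEK1-hi by the same log2 amount, and neither difference passed the test.

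S100a10 and S100a11, which work with annexins at membranes, came next, and they changed places between the groups. S100a10, or p11, has lost calcium binding and forms a complex with annexin A2 that gathers plasminogen at the surface of macrophages. S100a10 (93555117 to 93564645) had 252 FPKM in MEK1-hi and 313 FPKM in MEK1-low in the authors' deposited table (log2 fold change -0.31, p = 0.188, q = 0.9998). This p was the smallest among the 8 members. S100a11, a partner of annexin A1, had 279 FPKM in MEK1-hi and 261 FPKM in MEK1-low in the authors' deposited table (93520496 to 93526288, log2 fold change 0.10, p = 0.676, q = 0.9998). S100a11 was therefore the third member in MEK1-hi and S100a10 the third in MEK1-low, but with no spread per library their order within a group cannot be tested. Together S100a6, S100a4, S100a10 and S100a11 held 93.5% of the summed S100 FPKM in MEK1-hi and 94.2% in MEK1-low.

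**Figure D1:**
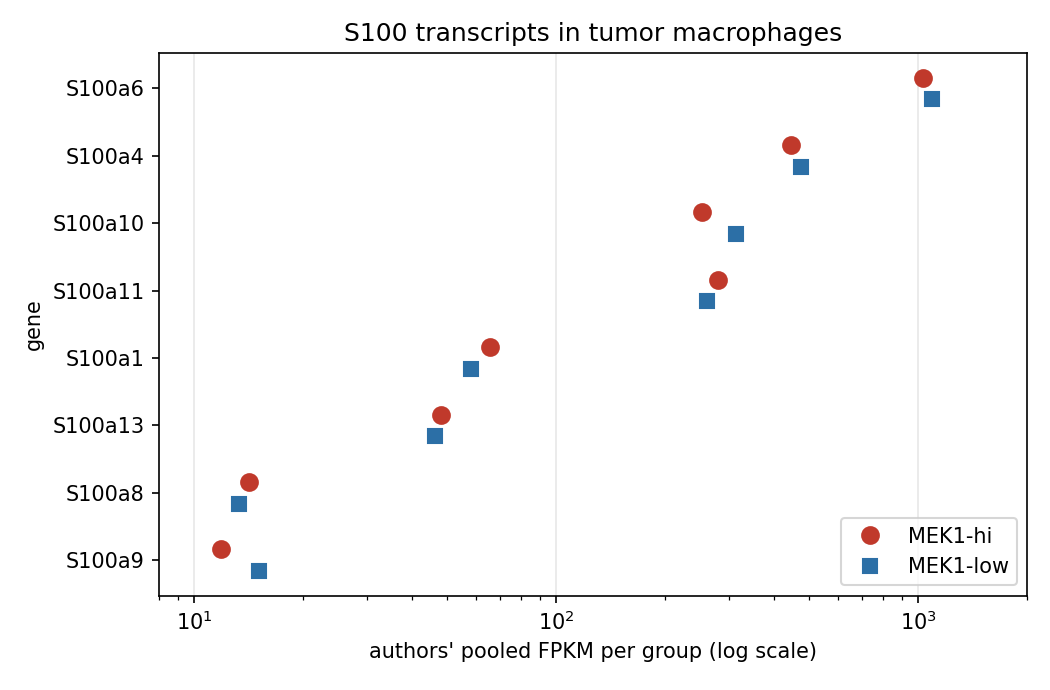
Levels of the 8 S100 transcripts: the horizontal axis is the authors' pooled FPKM on a log scale, circles are MEK1-hi (3 libraries pooled) and squares MEK1-low (2 libraries pooled), and no error can be drawn. The genes span from 11.9 FPKM (S100a9 in MEK1-hi) to 1093 FPKM (S100a6 in MEK1-low), while the points of each gene lie close together.

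S100a1 and S100a13, the divergent neighbors shown above, had middle levels. Whether their divergent start bears on those levels was not tested. S100a1 is best known from heart muscle, where it acts on calcium handling by the sarcoplasmic reticulum. S100a1 (90511034 to 90514330) had 65.6 FPKM in MEK1-hi and 58.0 FPKM in MEK1-low in the authors' deposited table (log2 fold change 0.18, p = 0.515, q = 0.9998). S100a13 takes part in the export of FGF1 and interleukin 1 alpha, proteins that leave cells without a signal peptide. S100a13 (90514435 to 90524581) had 48.1 FPKM in MEK1-hi and 46.3 FPKM in MEK1-low in the authors' deposited table (log2 fold change 0.05, p = 0.844, q = 0.9998). The ratio of S100a1 to S100a13 was 1.36 in MEK1-hi and 1.25 in MEK1-low.

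The calprotectin genes had the lowest levels of the 8. S100a8 (90669071 to 90670034) had 14.2 FPKM in MEK1-hi and 13.3 FPKM in MEK1-low in the authors' deposited table (log2 fold change 0.10, p = 0.84, q = 0.9998). S100a9 (90692630 to 90695721) had 11.9 FPKM in MEK1-hi and 15.1 FPKM in MEK1-low in the authors' deposited table (log2 fold change -0.35, p = 0.404, q = 0.9998). On the log2 scale this was the largest difference among the members. The subunits' transcripts stood at a ratio of S100a8 to S100a9 of 1.20 in MEK1-hi and 0.88 in MEK1-low, so the higher of the pair differed between the groups without either passing the test. S100a6 was 72.2 times as high as S100a8 in MEK1-hi and 82.2 times in MEK1-low. S100a8 and S100a4, which share the TATA box core at nearly the same place, differed in level, and whether that motif bears on level was not tested.

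Neutrophil markers, given beside the calprotectin genes, ranged from 0 to levels above those of S100a8 and S100a9. Of 22 neutrophil markers, 21 had a row, 15 of them were under 1 FPKM in both groups and 3 were listed at 0 in both. Ly6g, which defines mouse neutrophils, had 0.061 FPKM in MEK1-hi and 0.035 FPKM in MEK1-low in the authors' deposited table. The granule genes Camp and Ngp had 0.034 and 0.087 FPKM in MEK1-hi and 0.117 and 0.194 FPKM in MEK1-low, and Elane was listed at 0 in both. The neutrophil list summed to 262 FPKM in MEK1-hi and 201 FPKM in MEK1-low, of which Il1r2, a decoy receptor that monocytes and macrophages also make, gave 163 FPKM in MEK1-hi and 106 FPKM in MEK1-low. Csf3r, the G-CSF receptor, had 36.6 FPKM in MEK1-hi and 26.2 FPKM in MEK1-low in the authors' deposited table. Mmp9 had 22.5 FPKM in MEK1-hi and 37.6 FPKM in MEK1-low, Trem1 26.6 FPKM in MEK1-hi and 22.1 FPKM in MEK1-low, and Hdc 10.1 FPKM in MEK1-hi and 6.18 FPKM in MEK1-low. Csf3r, Mmp9 and Trem1 were thus above S100a8 and S100a9 in both groups, while Ly6g, Camp, Ngp and Elane were under 1 FPKM. Whether the Csf3r, Mmp9 and Trem1 transcripts came from neutrophils or from other cells was not tested. The part of neutrophils in the S100 levels was not tested either. Cuffdiff called 0 of the 7 tested genes of the list in the authors' deposited table, beside 1.32% of all tested rows. Before adjustment, Csf3r, Il1r2 and Hdc were above 0 and Retnlg and Mmp9 below 0 with a p under 0.05.

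Inflammatory monocytes are the other cells known for S100a8 and S100a9. The monocyte list does not separate them from other monocytes, and several of its genes passed the test. Of 16 tested monocyte markers in the authors' deposited table, 5 were called higher (Ly6c2, Plac8, Hp, Ace and Treml4) and 0 lower, with a median log2 fold change of 0.45. Of all tested rows, 0.999% were called higher and 0.325% lower. Ms4a4c and Spn (above 0) and Vcan, F13a1 and Fn1 (below 0) had a p under 0.05 but did not pass. Of the tested genes of the list, 13 lay above 0 and 3 below. The list summed to 1118 FPKM in MEK1-hi and 1196 FPKM in MEK1-low. Fn1 alone gave 232 FPKM of this in MEK1-hi and 535 FPKM in MEK1-low, so the MEK1-low sum leaned on 1 gene. The largest of the list in MEK1-hi was Nr4a1, with 339 FPKM there and 309 FPKM in MEK1-low. The part of monocytes in the levels of S100a8 and S100a9 was not tested. In bulk RNA, fewer cells of a type and less RNA per cell cannot be told apart.

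**Figure D2:**
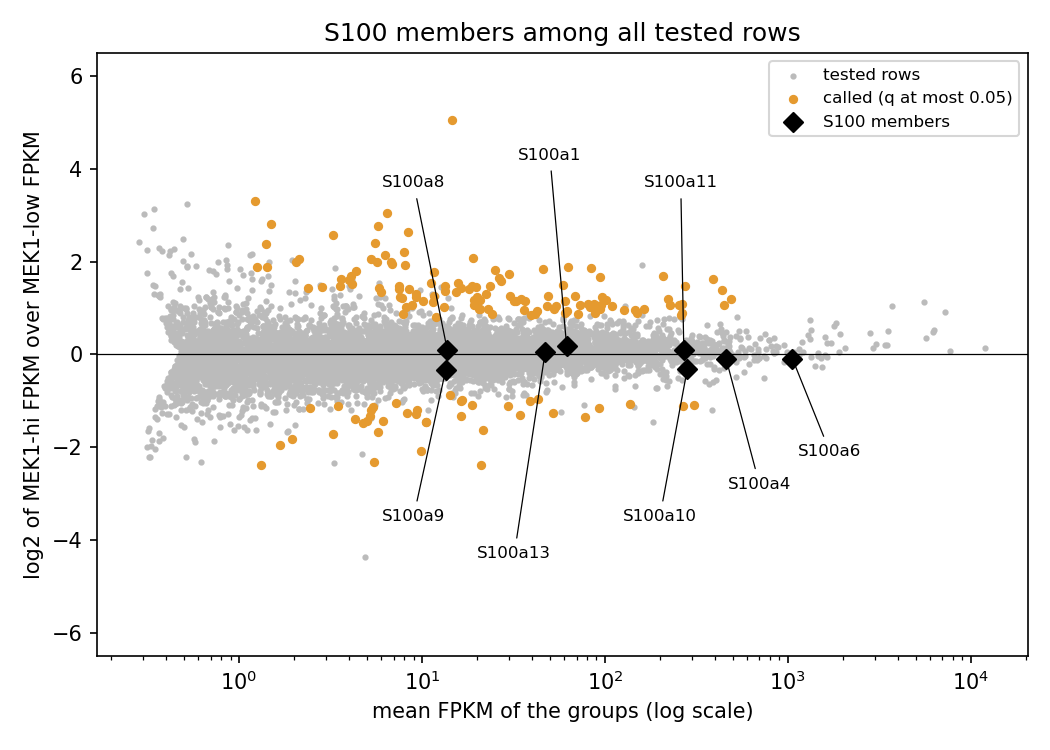
Log2 fold change (MEK1-hi over MEK1-low, vertical axis) against the mean FPKM of the groups (horizontal axis, log scale) for tested rows above 0 FPKM in both groups: gray points are rows, orange points are those called by Cuffdiff at a q of 0.05, and diamonds are the S100 members. The members run from -0.35 to 0.18, inside the band of rows that were not called.

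How large a difference the authors' test called at each member's level was read from rows of like level, those with a mean FPKM within 2-fold of the member. Around S100a8 there were 4385 such rows, of which 59 were called (1.35%), and the least of the called log2 differences was 0.82, or 1.76-fold. Around S100a10 there were 431, with 17 called (3.94%) and a least called log2 difference of 0.84. Around S100a4 there were 232, with 11 called (4.74%) and the same least difference of 0.84. Around S100a6 there were 72, and 0 were called, so no called difference exists at that level to read from. The largest log2 difference of a member, 0.35 in size for S100a9, was below each of these least called differences. Differences smaller than these were not called at such levels, and the q of 0.9998 shared by all 8 members does not show that their levels were equal.

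The other S100 genes were listed at low levels. Of 12 further symbols fixed as a list, 11 had a row, and 8 of these were under 1 FPKM in both groups. S100a5 had 2.13 FPKM in MEK1-hi and 1.19 FPKM in MEK1-low in the authors' deposited table (log2 fold change 0.84, p = 0.249, q = 0.9998). S100a16 had 1.38 FPKM in MEK1-hi and 1.64 FPKM in MEK1-low in the authors' deposited table (Cuffdiff p = 0.656). S100pbp, which encodes an S100-binding protein and not an S100 protein, had 6.76 FPKM in MEK1-hi and 6.89 FPKM in MEK1-low in the authors' deposited table (p = 0.923). These were the 3 that Cuffdiff tested, and 0 were called, beside 1.32% of all tested rows. S100a3, S100a7a and S100b, the last a marker of glial cells, had 0.391, 0.050 and 0.047 FPKM in MEK1-hi and 0.441, 0.043 and 0.160 FPKM in MEK1-low. S100a14 and S100g, which encodes the intestinal and renal calcium buffer calbindin-D9k, had 0.066 and 0.048 FPKM in MEK1-hi and were listed at 0 in MEK1-low. S100a2, S100a7l2 and S100z were listed at 0 in both groups.

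Along the chromosome 3 cluster, S100a genes were the only ones that reached 1 FPKM. The members form 2 blocks, with 6 genes between 90511034 and 90695721 and 2 genes, S100a11 and S100a10, between 93520496 and 93564645. From the first base of S100a1 to the last of S100a10 the table holds 71 rows, of which 10 reached 1 FPKM in at least one group. All 10 were S100a genes. Of the 56 rows in the cluster without an S100a symbol, which lie in the region of epidermal differentiation genes, 51 were listed at 0 in both groups. The 1 that was tested, the cornified envelope gene Sprr1a, had 0.839 FPKM in MEK1-hi and 0.434 FPKM in MEK1-low in the authors' deposited table (Cuffdiff p = 0.295, q = 0.9998). Of the 11 tested rows in the cluster, Cuffdiff called 0, beside 1.32% of all tested rows. A p under 0.05 before adjustment was reached by 0, beside 6.08% of all tested rows. With shares this low, these counts are no result about the cluster.

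Annexins, the membrane-binding partners of S100a6, S100a10 and S100a11, were expressed at levels like those of the members. Of 8 tested, Cuffdiff called 0, and 0 reached a p under 0.05 before adjustment in the authors' deposited table. Over all tested rows these shares were 1.32% and 6.08%. The median log2 fold change of the annexins was -0.01. Anxa2, the partner of S100a10, had 231 FPKM in MEK1-hi and 261 FPKM in MEK1-low in the authors' deposited table (p = 0.484). The ratio of S100a10 to Anxa2 was 1.09 in MEK1-hi and 1.20 in MEK1-low. Anxa1, the partner of S100a11 and a mediator that limits inflammation, had 154 FPKM in MEK1-hi and 196 FPKM in MEK1-low (p = 0.153 in the authors' deposited table). Anxa5, which binds phosphatidylserine, had 497 FPKM in MEK1-hi and 502 FPKM in MEK1-low.

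Among intracellular partners, 0 of 12 tested genes were called and 2 lay below 0 with a p under 0.05 before adjustment in the authors' deposited table, with a median log2 fold change of 0.03. Il1a, the cytokine that S100A13 helps to export, had 20.0 FPKM in MEK1-hi and 37.9 FPKM in MEK1-low in the authors' deposited table (log2 fold change -0.92, p = 0.00105, q = 0.0714). It was the closest to the threshold of all partners, while S100a13 itself had a log2 fold change of 0.05. Ahnak, a giant scaffold bound by the complex of S100A10 and annexin A2, had 41.7 FPKM in MEK1-hi and 63.3 FPKM in MEK1-low in the authors' deposited table (log2 fold change -0.60, p = 0.0314, q = 0.655). Myh9, the target of S100A4, had 145 FPKM in MEK1-hi and 165 FPKM in MEK1-low (p = 0.515 in the authors' deposited table). The most abundant on the list were Lgals3, which encodes galectin 3, with 507 FPKM in MEK1-hi and 449 FPKM in MEK1-low, and the actin-nucleating subunit gene Arpc2, with 430 FPKM in MEK1-hi and 376 FPKM in MEK1-low.

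Receptors for released S100 proteins also gave 0 called of 13 tested, beside 1.32% of all tested rows, with a median log2 fold change of -0.04. With a p under 0.05 before adjustment, 1 lay above 0 and 0 below 0 in the authors' deposited table, beside 6.08% of all tested rows. That gene was Cd36, a scavenger receptor and fatty acid transporter, with 18.0 FPKM in MEK1-hi and 10.6 FPKM in MEK1-low in the authors' deposited table (log2 fold change 0.77, p = 0.00245, q = 0.134). Among the receptors known for calprotectin, Tlr4 had 7.76 FPKM in MEK1-hi and 7.04 FPKM in MEK1-low, and Ager, which encodes RAGE, had 0.749 FPKM in MEK1-hi and 0.714 FPKM in MEK1-low in the authors' deposited table. Cd14, the co-receptor of TLR4, had 1003 FPKM in MEK1-hi and 1106 FPKM in MEK1-low (p = 0.66 in the authors' deposited table). Bsg, which encodes basigin, a reported receptor of S100A9, had 209 FPKM in MEK1-hi and 216 FPKM in MEK1-low. Cd68, a lysosomal macrophage protein that is also on the macrophage list, had 741 FPKM in MEK1-hi and 785 FPKM in MEK1-low.

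The plasminogen system, which S100A10 serves at the cell surface, had 0 of 5 tested genes called (median log2 fold change -0.08). A p under 0.05 before adjustment was reached by 0 in the authors' deposited table. Over all tested rows these shares were 1.32% and 6.08%. Plau, the urokinase that activates plasminogen, had 405 FPKM in MEK1-hi and 494 FPKM in MEK1-low (p = 0.343 in the authors' deposited table). Its receptor gene Plaur had 195 FPKM in MEK1-hi and 206 FPKM in MEK1-low, and Plgrkt, another plasminogen receptor, had 59 FPKM in MEK1-hi and 51.5 FPKM in MEK1-low. Plg, the plasminogen gene of the liver, was listed at 0 in both groups.

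Calmodulins and other EF-hand proteins had 0 of 15 tested called, with 1 above 0 and 0 below 0 having a p under 0.05 before adjustment in the authors' deposited table and a median log2 fold change of 0.08. Aif1, the macrophage protein IBA1, had 515 FPKM in MEK1-hi and 353 FPKM in MEK1-low in the authors' deposited table (log2 fold change 0.54, p = 0.0285, q = 0.618). Efhd2 had 456 FPKM in MEK1-hi and 383 FPKM in MEK1-low, and Lcp1, the actin-bundling plastin of leukocytes, had 398 FPKM in MEK1-hi and 388 FPKM in MEK1-low. Over these 5 lists, 0 of 53 tested genes were called, beside 1.32% of all tested rows. Before adjustment, 2 above 0 and 2 below 0 reached a p under 0.05 in the authors' deposited table. Of all tested rows, 3.5% did so higher and 2.58% lower.

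**Figure D3:**
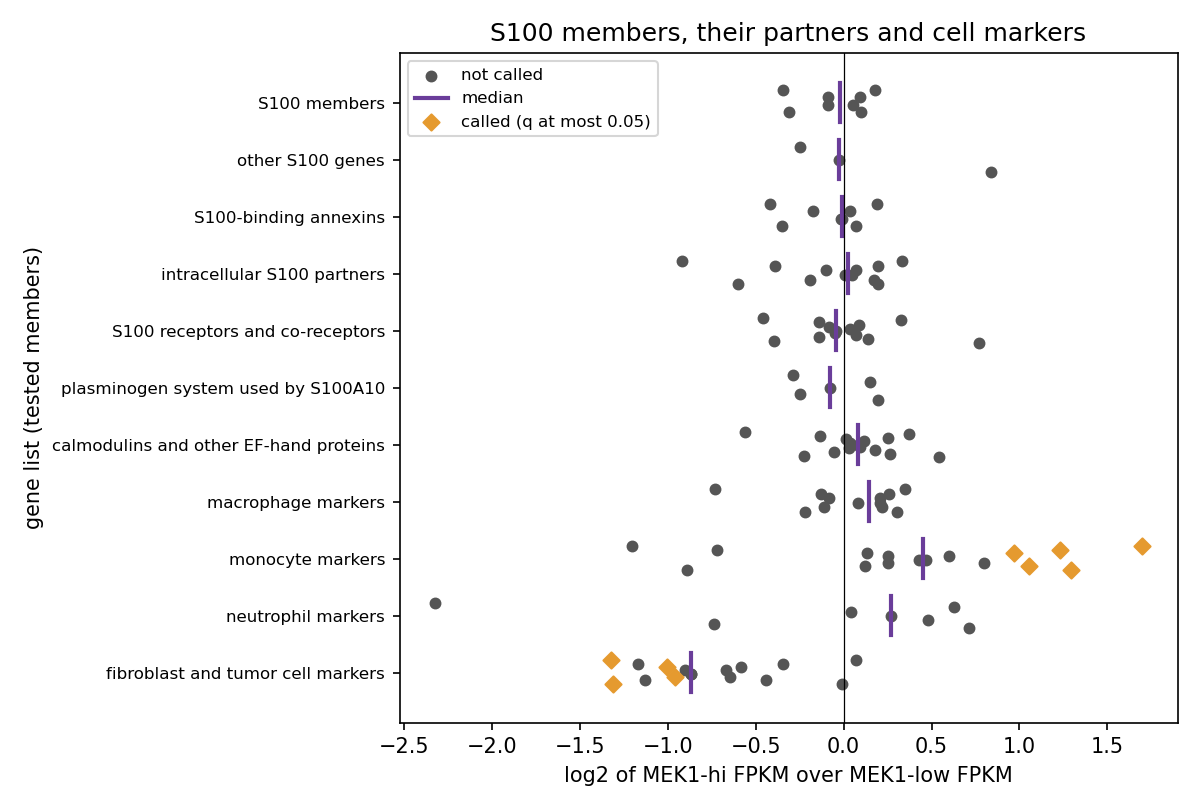
Log2 fold changes (MEK1-hi over MEK1-low, horizontal axis) of tested genes in the S100 lists, 5 partner lists and 4 marker lists: points are genes, diamonds are genes called by Cuffdiff at a q of 0.05 and vertical bars are medians. The S100 members and partner lists hold 0 called genes, with list medians from -0.08 to 0.08, while called genes appear among monocyte markers (higher) and fibroblast and tumor cell markers (lower).

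Fibroblast and tumor cells also make S100a4, S100a6, S100a10 and S100a11, and their markers were present in these libraries. Of 16 such markers in the authors' deposited table, all tested, 4 were called lower (Col5a1, Col6a3, Acta2 and Thy1) and 0 higher, with a median log2 fold change of -0.87. Over all tested rows the shares called were 0.325% lower and 0.999% higher. The list ranged from 1.36 to 1588 FPKM in MEK1-hi and from 2.49 to 1601 FPKM in MEK1-low, the highest being Vim, which macrophages express too. Col1a2, Dcn, Lum, Pdgfrb and Fap were also below 0 with a p under 0.05, without passing. Its sum was 2782 FPKM in MEK1-hi and 3446 FPKM in MEK1-low. None of its genes was at 0, and its part in the S100 levels was not tested. The labelled cell type was plain in the table, since all 12 macrophage markers were tested, with levels from 23.1 to 6372 FPKM in MEK1-hi and from 25.2 to 4999 FPKM in MEK1-low, and Cuffdiff called 0. Before adjustment, Mrc1 alone had a p under 0.05, below 0. Dendritic cell markers had 2 of 10 called higher (Xcr1 and Clec9a) and 0 lower, sums of 186 FPKM in MEK1-hi and 150 FPKM in MEK1-low, and 0 at 0. Flt3 and Itgax (above 0) and Cd209a (below 0) had a p under 0.05 without passing. Epithelial, endothelial and lymphocyte markers summed to 15.0, 10.4 and 43.2 FPKM in MEK1-hi and to 21.4, 9.62 and 38.2 FPKM in MEK1-low, with 0 called by Cuffdiff in the authors' deposited table. Before adjustment, 0 epithelial and 0 endothelial markers reached a p under 0.05, and among lymphocyte markers Cd8a, Nkg7 and Gzmb did so above 0 and Cd4 below 0.

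The directions of several members depended on the scaling of the groups. The FPKM of all 24982 rows summed to 489538 in MEK1-hi and 457142 in MEK1-low, so that rescaling to equal sums lowered every log2 fold change by 0.10. Under that scaling S100a8 had a log2 fold change of -0.0032 and S100a13 of -0.0447, both with their sign turned, S100a11 stood at 0.0005, and S100a1 at 0.08 was the clearest of the members still above 0. S100a9, S100a10, S100a4 and S100a6 were below 0 under every scaling tried, with S100a9 at -0.45 and S100a10 at -0.41 under equal sums. Those sums include Cd74, which Cuffdiff marked as having too much data and listed at 0 in MEK1-hi, against 9984 FPKM in MEK1-low. Over the 12311 tested rows the sums were 488535 FPKM in MEK1-hi and 445987 FPKM in MEK1-low, a shift of 0.13 on the log2 scale. With these sums made equal, a scaling chosen after seeing the data, S100a11 was also below 0, at -0.0322, and S100a1 was the 1 member above 0, at 0.05. The summed S100 level in MEK1-hi over MEK1-low was 0.943 as deposited, 0.88 with equal sums over all rows and 0.861 with equal sums over tested rows.

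**Figure D4:**
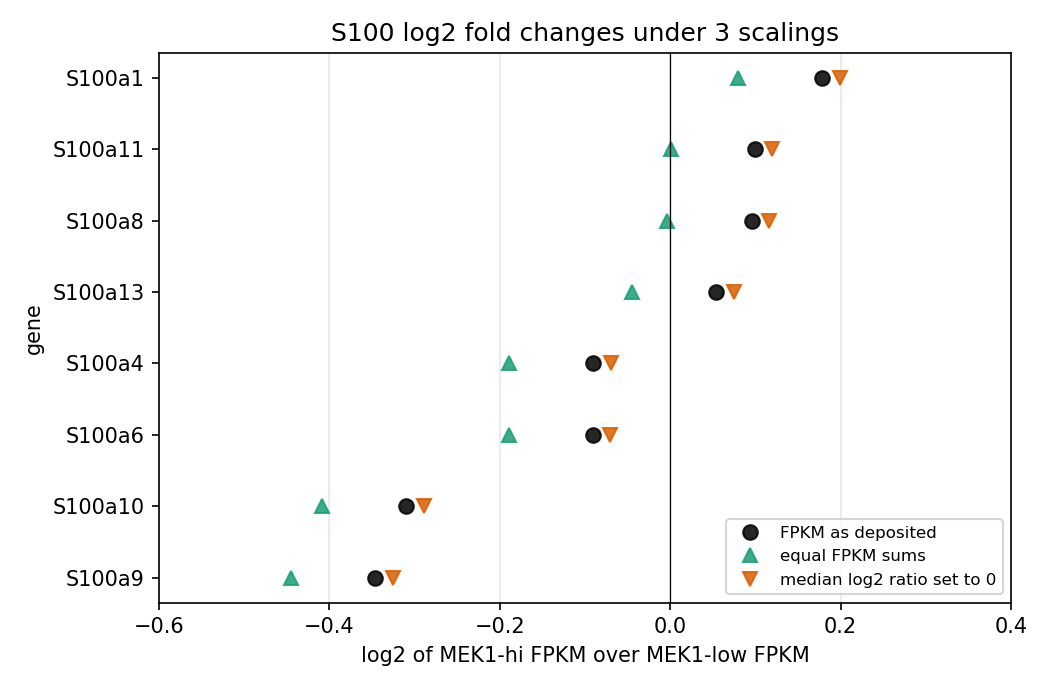
Log2 fold changes (MEK1-hi over MEK1-low, horizontal axis) of the 8 S100 members under 3 scalings: circles are the FPKM as deposited, upward triangles the FPKM rescaled to equal sums and downward triangles the FPKM rescaled so that the median of expressed rows is 0. S100a9, S100a10, S100a4 and S100a6 are below 0 under each, whereas S100a8 and S100a13 cross 0 under equal sums.

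The transcripts are short, and some have copies. In GENCODE release M21 the longest coding transcripts ran from 486 bases (S100a8) to 731 bases (S100a6), most with 3 exons and that of S100a13 with 4. Over at least 100 aligned bases at 95% identity or more, S100a11 matched 2 other annotated genes, Gm12854 and Gm7665, over 58.1% of its transcript. S100a4 matched Gm42674, a gene model that overlaps it on the same strand, over 60.6%. None of the 3 has a row of its own in the table, so the values of S100a11 and S100a4 are uncertain as far as the authors' read assignment could share reads with them. The other 6 members had 0 such matches.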

How the data were processed

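RNA-seq was made from 3 MEK1-hi and 2 MEK1-low macrophage samples. The labels' protocols give an RNA integrity number over 8.0, stranded mRNA libraries from 750 ng of RNA and paired reads of 100 bases. FastQC 0.73, TopHat, Cufflinks, Cuffdiff and mm10 are named, without role or order, per the submitters' processing notes. No source used here gives the annotation or strand setting. The authors pooled the libraries of a group into 1 deposited FPKM value. The deposited statistic of the authors' test is a score. The p-value and q-value columns were used as the authors deposited them, and q matched a Benjamini-Hochberg adjustment over the 12311 tested rows to within 5e-07.

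Log2 fold changes were taken from the deposited FPKM values with no pseudocount. Because FPKM are no counts and single libraries have no values, the authors' own test was used and no other was made. The steps were tested on simulated data. The gene lists, 15 with that of the members (188 symbols, 184 found), and the members were chosen with earlier results of these data known. The rule for named genes took all S100 genes, and from each further list those called, those with an unadjusted p under 0.05 and the 3 with the highest mean FPKM. For marker lists some of these are left unnamed. Genes outside the rule (Ly6g, Camp, Ngp, Elane, Tlr4, Ager, Plg, Trem1, Cd74 and Sprr1a) were chosen after their values were seen. Alternatives changed the threshold, the adjustment, the scaling and the pseudocount. Loci are the authors' on mm10 with 1 added to the start, which made 7941 of 23696 matched starts equal to those of GENCODE M21, against 731 as written. Promoter windows are RefSeq's on GRCm38.p6, and copies were searched with blastn 2.17.0. The software was matplotlib 3.10.9, pandas 2.3.3, numpy 2.4.6 and scipy 1.17.1 under Python 3.11.15.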

Additional observations from a re-analysis of the deposited data

How the results depend on the processing

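The count of 0 called S100 members held under the 6 alternatives tried (a q of 0.1, an unadjusted p under 0.05, adjustment over rows of at least 1 FPKM, the Benjamini-Yekutieli adjustment, a normal p from the statistic, and rows with joined symbols left out). Most of these could not have given another count. The smallest member p of the authors' Cuffdiff test was 0.188, and an adjusted p is never below its p. Each member is also a row of its own, so leaving out joined symbols removes none. With FPKM rescaled to equal sums, 2 members were higher in MEK1-hi in place of 4, because S100a8 (-0.0032) and S100a13 (-0.0447) changed sign. With equal sums over tested rows, chosen after seeing the data, 1 was higher, with S100a8 at -0.0359, S100a11 at -0.0322 and S100a13 at -0.0773. With the median of expressed rows set to 0, the members' median log2 fold change was 0.0024 in place of -0.02. A pseudocount of 0.1 or 1, added to both groups, cannot turn a sign, so the kept signs of those 16 values carry no support. Of the 53 tested partner and receptor genes, 1 was called at a q of 0.1 in place of 0, beside 1.61% of all tested rows. At an unadjusted p under 0.05 of the authors' Cuffdiff test there were 4, beside 6.08% of all tested rows. Neither count is a result about these genes. Leaving out each library could not be run, since the table holds 1 value per group. No paired analysis was possible because the columns carry no replicate numbers. Depth and spread per library are unknown from the table, so neither intervals nor detection floors are printed, and differences below the least called ones at a member's level cannot be judged.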
